A study of Mus musculus with 8 samples.

Results

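The genes examined here mark the two-cell-like state of mouse embryonic stem cells (mESCs), a rare and reversible condition in which a cell switches on genes of the two-cell embryo. The list held 8 genes, namely Zscan4c, Zscan4d, Zscan4f, Zfp352, Tcstv1, Tcstv3, Dppa2 and Dppa4, and the rows of the deposited gene count matrix were taken by Ensembl identifier. A row was matched for 6 of the 8 genes, out of 50686 identifiers in the matrix. Tcstv1 and Tcstv3 matched no identifier in the reference tables used and were not analysed here.

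Wild-type mESCs (R9wt) and Rad9-/- mESCs (R9del) were cultured for 1 day (D1) or 5 days (D5) in the payload of the SJ-10 satellite (Space) or in the same kind of payload on the ground (Ground). RNA sequencing gave 8 libraries, 1 for each combination of location, genotype and culture duration, so no condition had a replicate and each comparison of 4 libraries with 4 carried the other conditions in its spread. All groups shared the kind of culture device, the fixation in RNAlater, the cold storage and the TRIzol extraction, but not the time in storage. Cells in the satellite were fixed after 1 or 5 days and kept cold until its return, so storage was longer at D1. The time in storage cannot be told apart from culture duration. Cultures of D1 and of D5 stood over different temperature controllers and started from different numbers of cells, and at D5 the starting number also differed between the genotypes, so those differences cannot be told apart from culture duration and, at D5, from genotype. The ground cultures had neither launch nor landing. Whether the R9del cells are a single clone is not given in the sources used here, so that a difference between genotypes cannot be told apart from one between cell lines.

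In the mouse embryo the two-cell stage is when the embryonic genome is first broadly transcribed. In mESC cultures few cells express that program at any time, and they enter and leave it. Dppa2 and Dppa4 are DNA-binding partners that are expressed in most mESCs and are needed to switch on Dux, a double-homeobox transcription factor. Dux in turn activates many genes of the two-cell stage, among them the Zscan4 genes, Zfp352 and the Tcstv genes. The Zscan4 proteins combine a SCAN domain with zinc fingers and take part in telomere maintenance and genome stability, and Zfp352 encodes another zinc finger protein of the early embryo. Since the libraries hold RNA of whole cultures, more cells of the two-cell-like type and more RNA per such cell cannot be told apart.

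The Zscan4 genes lie in 1 cluster on chromosome 7 and are near-identical copies, which bears on how their reads could be assigned. In the mm9 genome Zscan4c (ENSMUSG00000054272, plus strand, 4 exon blocks) spans chr7:11591071-11595896, Zscan4d (ENSMUSG00000090714, minus strand, 4 exon blocks) chr7:11746992-11751497 and Zscan4f (ENSMUSG00000070828, plus strand, 5 exon blocks) chr7:11983264-11988090. Each has an annotated coding sequence of 1521 bases. Zscan4c and Zscan4f were identical at 99.61% of these bases and differed at 6, and Zscan4d differed from each of them at 35 bases. The 3 genes differed at 38 positions in all, and their longest common run was 233 bases. Of the 50-base words in the annotated transcripts that also occur in the genome sequence, 84.5% for Zscan4c, 49.6% for Zscan4d and 97.6% for Zscan4f occurred there more than once. The stretch of 60 coding bases in which the copies differ most is shown to make clear how little separates them, as bases 1032 to 1091 of the coding sequence with each base that is not the same in all 3 genes in capitals.
Zscan4c: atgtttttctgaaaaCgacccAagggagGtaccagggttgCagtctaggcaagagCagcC
Zscan4d: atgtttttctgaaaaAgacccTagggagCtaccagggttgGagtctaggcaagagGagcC
Zscan4f: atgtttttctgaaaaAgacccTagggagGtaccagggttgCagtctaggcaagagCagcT
The copies are therefore described singly and as a sum, and the division of reads among them is uncertain. Zfp352, in comparison, had 9.0% of its 50-base words at more than 1 place, and Dppa2 and Dppa4 had 50.6% and 45.6%.

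The members that rose together are shown with their promoters, from the 250 bases before the annotated start in RefSeq (GRCm38.p6 build). The set of promoter sequences used here covered 4 of the 6 genes, without Dppa2 and Dppa4. The capitals mark TATAAA in the Zscan4 genes and TAATCC, the core of motifs bound by many homeodomain proteins, in Zfp352.
Zscan4c (chr7:11005495-11005744, plus strand): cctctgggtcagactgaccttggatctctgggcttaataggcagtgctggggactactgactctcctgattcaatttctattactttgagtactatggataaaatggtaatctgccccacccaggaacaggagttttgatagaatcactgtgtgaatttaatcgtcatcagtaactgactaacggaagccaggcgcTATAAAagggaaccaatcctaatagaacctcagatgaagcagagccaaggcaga
Zscan4d (chr7:11166149-11166398, minus strand): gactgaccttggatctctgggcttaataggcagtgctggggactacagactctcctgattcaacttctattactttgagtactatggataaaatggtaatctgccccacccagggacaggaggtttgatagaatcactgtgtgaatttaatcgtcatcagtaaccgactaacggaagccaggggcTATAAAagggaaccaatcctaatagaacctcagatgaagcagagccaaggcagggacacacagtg
Zscan4f (chr7:11397665-11397914, plus strand): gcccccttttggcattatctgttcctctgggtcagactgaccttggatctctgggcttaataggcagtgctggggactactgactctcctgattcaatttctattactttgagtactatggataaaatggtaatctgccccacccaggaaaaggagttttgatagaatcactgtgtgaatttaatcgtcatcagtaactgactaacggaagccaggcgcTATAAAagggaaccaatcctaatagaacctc
Zfp352 (chr4:90218570-90218819, plus strand): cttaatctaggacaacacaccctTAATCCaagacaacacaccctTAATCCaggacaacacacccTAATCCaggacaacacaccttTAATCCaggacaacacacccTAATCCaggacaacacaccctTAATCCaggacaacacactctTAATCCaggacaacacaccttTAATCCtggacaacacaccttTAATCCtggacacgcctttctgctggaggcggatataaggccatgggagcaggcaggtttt
Both strands were searched for these motifs, which were chosen after the sequences were seen, and for a longer double-homeobox motif that is not spelled out here. TATAAA occurred once in each Zscan4 promoter, beginning 54 bases before the start in Zscan4c, 65 in Zscan4d and 31 in Zscan4f, and not in that of Zfp352; 12.4% of 32851 promoters of the same length held it. The Zfp352 promoter held TAATCC 9 times on the plus strand, as part of a short tandem repeat, between 61 and 227 bases before the start. Of all promoters 6.25% held TAATCC at least once and only 1, that of Zfp352, held it 9 times or more. The longer motif was in none of the 4 windows and in 0.0304% of all promoters. The Zscan4 promoters held 3 CpG each and that of Zfp352 held 2, against a median of 6 over all promoters, of which 37.8% had 3 or fewer. A match is a description of the letters and not of a bound site.

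The libraries held between 58238440 and 96416907 counts, and after scaling by edgeR's TMM factors (0.929 to 1.04) the level of 3 counts, used as the limit for a gene with a count of 0, was 0.0335 to 0.0503 CPM, a unit that scales each count to its library's total. This limit and the counting intervals below cover counting error only. Rad9, the deleted gene, lay at 70.3 to 93.4 CPM in the R9wt libraries and at 20.8 to 28.6 CPM in the R9del libraries. All 8 markers of mESCs on the list used (Pou5f1, Nanog, Sox2, Zfp42, Klf4, Esrrb, Tdgf1 and Utf1) were at 34.8 CPM or more in every library, with a summed level of 2380 to 5329 CPM. Space_R9del_D1 stood apart for the Zscan4 genes and Zfp352, and the fold changes and interactions of these genes are given with and without it.

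Dppa2 and Dppa4 were detected in all 8 libraries and were higher in R9del. Dppa2 (ENSMUSG00000072419, chr16:48310590-48319836 of mm9, plus strand, 7 exon blocks) was at 32.9 CPM in Ground_R9wt_D1, 5.22 in Ground_R9wt_D5, 10.6 in Space_R9wt_D1 and 22.6 in Space_R9wt_D5, and at 78.5 CPM in Ground_R9del_D1, 67.9 in Ground_R9del_D5, 78.5 in Space_R9del_D1 and 64.6 in Space_R9del_D5. The wild-type values spread widely, with Ground_R9wt_D5 lowest, whereas the 4 R9del values were close to each other, and the groups did not overlap. Its partner Dppa4 (ENSMUSG00000058550, chr16:48283848-48294405, plus strand, 7 exon blocks) is its neighbour on the chromosome. Dppa4 was at 168 CPM in Ground_R9wt_D1, 90.8 in Ground_R9wt_D5, 150.4 in Space_R9wt_D1 and 113 in Space_R9wt_D5, and at 224.9 CPM in Ground_R9del_D1, 219.7 in Ground_R9del_D5, 207 in Space_R9del_D1 and 183.8 in Space_R9del_D5. Here too every R9del library lay above every R9wt library, by a smaller margin.

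The Zscan4 genes were low in wild-type cells and many times higher in R9del. Zscan4c was at 2.61 CPM in Ground_R9wt_D1, 3.09 in Ground_R9wt_D5, 2.31 in Space_R9wt_D1 and 4.42 in Space_R9wt_D5, and at 67.7 CPM in Ground_R9del_D1, 30.2 in Ground_R9del_D5, 232 in Space_R9del_D1 and 24.0 in Space_R9del_D5. Zscan4d was at 1.62 CPM in Ground_R9wt_D1, 0.726 in Ground_R9wt_D5, 1.72 in Space_R9wt_D1 and 1.20 in Space_R9wt_D5, and at 40.6 CPM in Ground_R9del_D1, 16.5 in Ground_R9del_D5, 142.5 in Space_R9del_D1 and 16.5 in Space_R9del_D5. Zscan4f was at 3.32 CPM in Ground_R9wt_D1, 4.32 in Ground_R9wt_D5, 3.06 in Space_R9wt_D1 and 5.27 in Space_R9wt_D5, and at 88.7 CPM in Ground_R9del_D1, 38.7 in Ground_R9del_D5, 298.9 in Space_R9del_D1 and 32.2 in Space_R9del_D5. For each of the 3 genes Space_R9del_D1 was highest, Ground_R9del_D1 came next, both R9del cultures of D5 followed, and the wild-type libraries lay below all of them.

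Zfp352 (ENSMUSG00000070902, chr4:89885511-89892393 of mm9, plus strand, 2 exon blocks) was close to the detection limit in wild-type cells, with 4 counts in Ground_R9wt_D1, 0 in Ground_R9wt_D5, 10 in Space_R9wt_D1 and 9 in Space_R9wt_D5. In R9del it had 485 counts in Ground_R9del_D1, 90 in Ground_R9del_D5, 1173 in Space_R9del_D1 and 77 in Space_R9del_D5. On the CPM scale these were 0.0465, 0, 0.149 and 0.147 in the R9wt libraries and 7.25, 1.23, 16.7 and 1.29 in the R9del libraries, in the same order. The order of the R9del libraries was that of the Zscan4 genes except at D5, where the Space and Ground values of Zfp352 did not differ beyond their counting error. The same held for Zscan4d at D5.

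**Figure D1:**
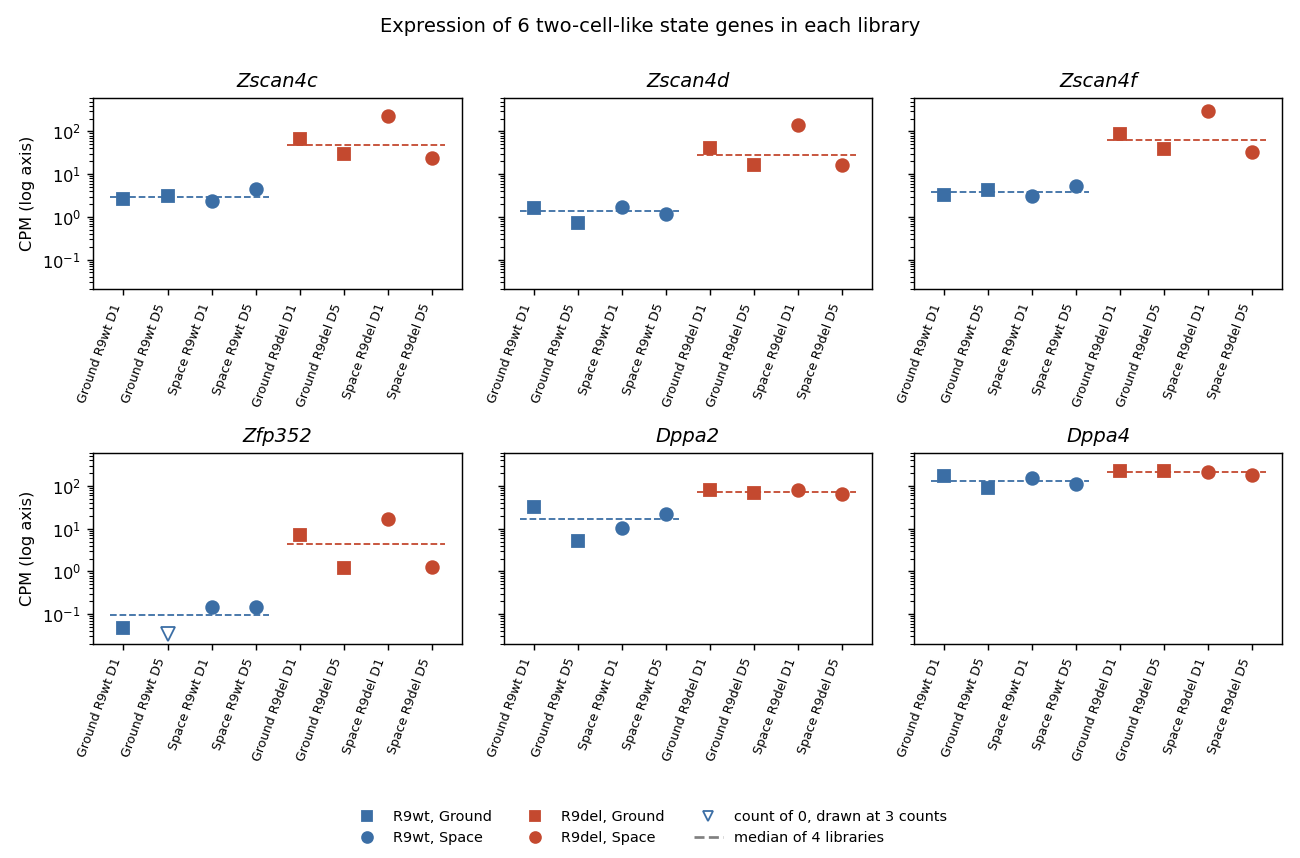
Expression in CPM (log axis) of the 6 genes in each of the 8 libraries, with R9wt in blue, R9del in red, squares for Ground and circles for Space. Dashed lines are medians of 4 libraries, and the open triangle marks the library with 0 counts of Zfp352, drawn at the level of 3 counts. In all 6 panels the 4 R9del libraries lie above the 4 R9wt libraries, and Space_R9del_D1 is highest for the Zscan4 genes and Zfp352.

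Compared per length, as RPKM, that is CPM divided by the annotated exon length in kilobases, the median levels of the genes had the same order in both genotypes. Dppa4 was the most expressed, with a median RPKM of 85.8 in R9wt and 139 in R9del, followed by Dppa2 with 8.52 and 37.6. The median RPKM of Zscan4f was 1.57 in R9wt and 26.2 in R9del, that of Zscan4c 1.24 and 21.3, that of Zscan4d 0.706 and 14.3, and that of Zfp352 0.0417 and 1.84. In Space_R9del_D1 alone Zscan4f (123 RPKM) and Zscan4c (100.9 RPKM) came near the level of Dppa4 (134.9 RPKM). The handling of reads that fit several places is not given. The share of 50-base words at more than 1 place ran from 9.0% (Zfp352) to 97.6% (Zscan4f). Comparisons of level between these genes are therefore uncertain.

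The comparison of R9del with R9wt asks how the loss of Rad9, a checkpoint and DNA repair factor, affects expression in both locations and at both durations. In edgeR's quasi-likelihood test over 20473 genes, a gene had to reach a 2-fold difference with a p under 0.05 to be called under the unadjusted rule, and the same fold with a Benjamini-Hochberg adjusted p under 0.05 under the adjusted rule. Of the 6 genes, 5 were called higher under the unadjusted rule, as were 6.37% of all genes tested (7.39% were lower), and 4 under the adjusted rule, as were 1.18% (0.85% were lower). On the log2 scale Zscan4d rose by 5.38 (standard error 0.80, adjusted p = 0.0317), Zscan4f by 4.86 (0.74, 0.0317) and Zscan4c by 4.85 (0.76, 0.0327). Zfp352 rose by 6.30 (standard error 1.23, adjusted p = 0.0415), which placed it 16th of all genes by fold, with Zscan4d 25th. Its wild-type level lay near the detection limit, so the size of this fold rests on few counts, and it passed the filter on low counts through the R9del libraries.

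Dppa2 and Dppa4, which act upstream, had smaller fold changes. Dppa2 passed the unadjusted rule, at 2.04 on the log2 scale (standard error 0.49) and an adjusted p of 0.0653. Dppa4 did not reach a fold of 2, at 0.69 on the same scale (standard error 0.23, adjusted p = 0.147). All 6 genes were higher in 4 of 4 pairs of libraries that shared location and duration, and their groups did not overlap, as for 7.1% of all genes tested (two-sided exact permutation test for each gene, p = 0.0286, which is the lower limit for groups of this size). The group means were 3.11 ± 0.93 and 88.5 ± 97.8 CPM for Zscan4c (R9wt and R9del, SD, n = 4), 1.31 ± 0.45 and 54.0 ± 60.1 for Zscan4d, and 3.99 ± 1.01 and 115 ± 125 for Zscan4f. For Zfp352 they were 0.0858 ± 0.0747 and 6.61 ± 7.28 CPM, for Dppa2 17.8 ± 12.4 and 72.4 ± 7.20, and for Dppa4 130.5 ± 34.96 and 209 ± 18.3. The relative spread was thus wide within R9del for the Zscan4 genes and Zfp352, and wide within R9wt for Dppa2 and, on few counts, for Zfp352.

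The direction and the unadjusted calls of these genes held with each library left out in turn, whereas the adjusted calls were lost in several of these fits. Without Space_R9del_D1 the log2 fold change was 3.71 for Zscan4c, 4.22 for Zscan4d, 3.74 for Zscan4f and 5.26 for Zfp352. No member passed the adjusted rule without Ground_R9wt_D5, Space_R9wt_D1, Space_R9wt_D5, Ground_R9del_D1 or Space_R9del_D1, and the adjusted p then reached at most 0.103 for the Zscan4 genes. For Zfp352 the adjusted p was 0.0518 to 0.122 over the 8 fits that left out 1 library. With the matched pairs as a block in edgeR's test, 5 members passed the adjusted rule, Dppa2 included (log2 fold change 2.34, adjusted p = 0.0204).

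**Figure D2:**
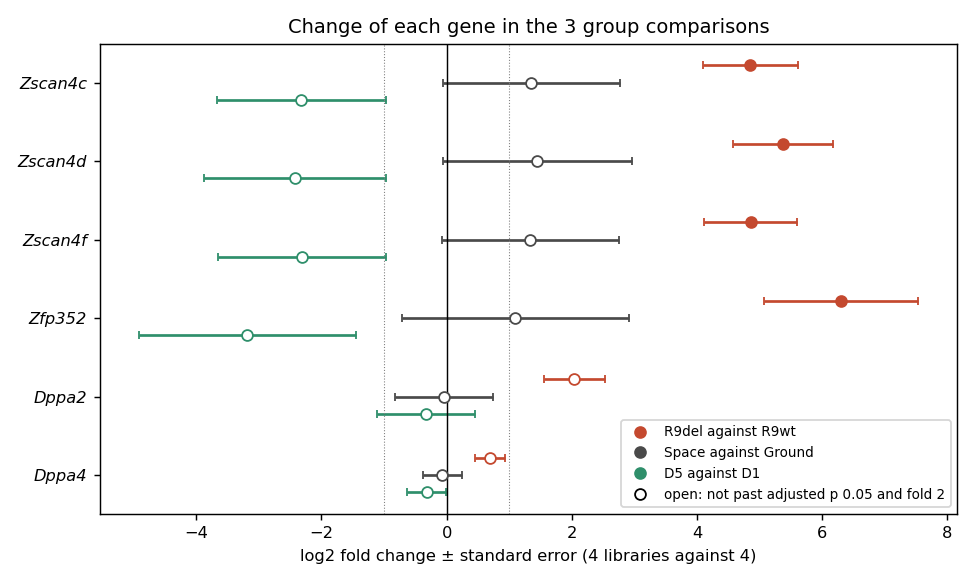
Log2 fold change with its standard error for each gene in the 3 comparisons of 4 libraries with 4 (edgeR quasi-likelihood test), with dotted lines at a fold of 2. Filled points pass a fold of 2 and an adjusted p under 0.05. They are those of Zscan4c, Zscan4d, Zscan4f and Zfp352 in R9del against R9wt, at 4.85 to 6.30.

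Single libraries that differed only in genotype gave the size of the difference in each setting, with a 95% counting interval and no estimate of the spread between cultures. Zscan4c was 26.0-fold higher in R9del (22.7 to 29.9) on the ground at D1, 9.75-fold (8.60 to 11.1) on the ground at D5, 100.4-fold (85.7 to 118) in the D1 pair of space and 5.43-fold (4.76 to 6.21) in its D5 pair. Zscan4d was 25.1-, 22.8-, 83.0- and 13.8-fold higher and Zscan4f 26.7-, 8.95-, 97.6- and 6.11-fold higher in the same order. The ratio was therefore largest at D1 and smallest at D5 of the space cultures for the 3 genes. Zfp352 was 156-fold higher (60.5 to 574) on the ground at D1, at least 36.7-fold on the ground at D5 (bound from 3 counts in the wild-type library), 112-fold (60.5 to 233) at D1 in space and 8.76-fold (4.38 to 19.9) at D5 there. Dppa2 gave another order, with 2.39-fold and 13.0-fold on the ground at D1 and D5 and 7.40-fold and 2.86-fold in space. Dppa4 was 1.34-, 2.42-, 1.38- and 1.63-fold higher. Past a fold of 2 were 5 of the 6 genes on the ground at D1 (11.1% of the 17597 genes with at least 1 CPM in a library), 6 on the ground at D5 (16.8%), 5 at D1 in space (18.6%) and 5 at D5 there (12.1%).

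**Figure D3:**
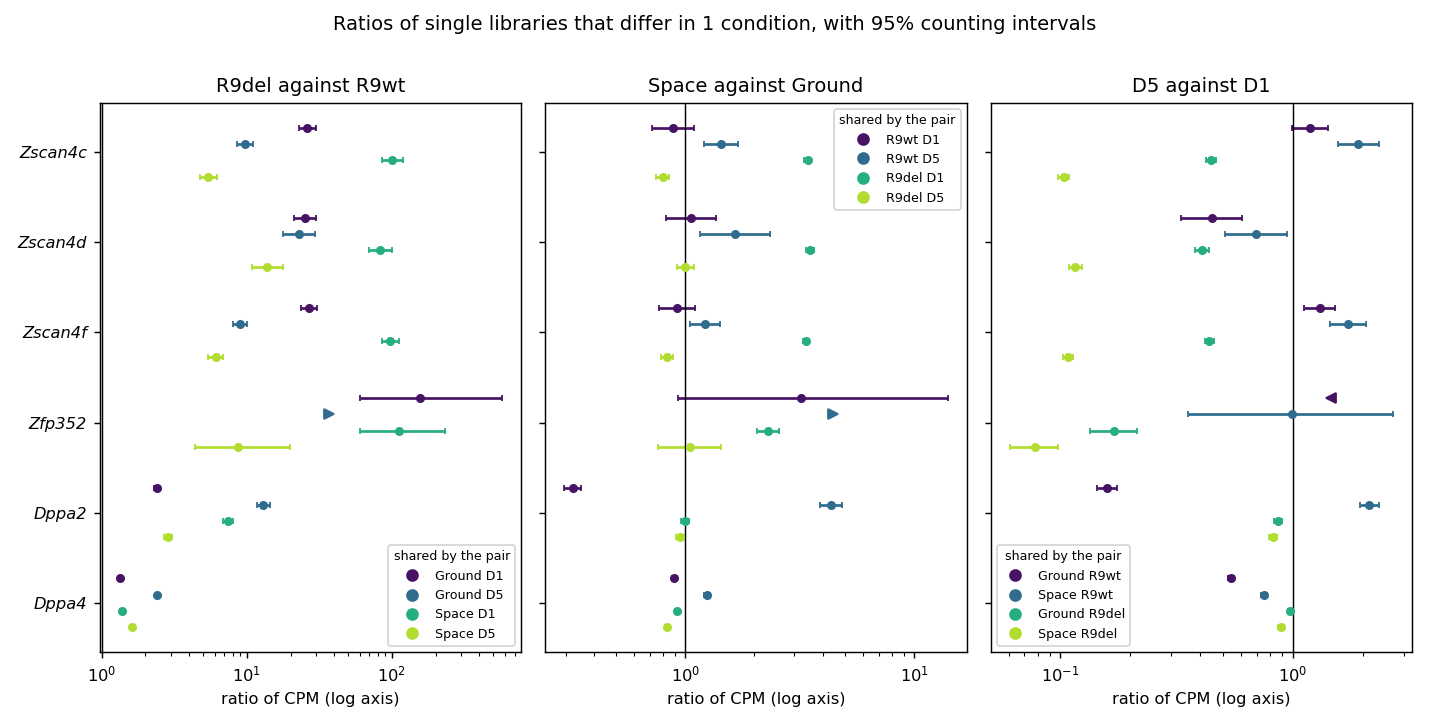
Ratio of CPM (log axis) between 2 libraries that differ in 1 condition, for each gene, with 95% counting intervals. Colours give the conditions the pair shares, a triangle to the right is a lower bound where the denominator had 0 counts, and a triangle to the left is the upper limit where the numerator had 0. The ratios of R9del to R9wt are all above 1, and the Zscan4 genes show their highest ratios in space at D1.

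Taken as a sum, the 3 Zscan4 genes were at 7.54, 8.14, 7.09 and 10.9 CPM in Ground_R9wt_D1, Ground_R9wt_D5, Space_R9wt_D1 and Space_R9wt_D5. In R9del the sum was 197 CPM in Ground_R9del_D1, 85.4 in Ground_R9del_D5, 674 in Space_R9del_D1 and 72.7 in Space_R9del_D5. The sum does not depend on how reads were divided among these 3 genes, and the groups again did not overlap. Reads shared with further copies, Zscan4b, Zscan4e and Zscan4-ps2, could still affect it. These copies matched no row by symbol, and the matrix was not searched by their identifiers. Of these, Zscan4-ps2 differed from Zscan4f at only 4 coding bases. In R9del Zscan4c took 33.0% to 35.3% of the summed counts, Zscan4d 19.4% to 22.7% and Zscan4f 44.3% to 45.3%. The share of Zscan4d there also differed beyond counting error, with 19.4% (95% Wilson interval 18.4 to 20.4) in Ground_R9del_D5 and 22.7% (21.5 to 24.0) in Space_R9del_D5, over a narrower range than in R9wt. In R9wt the share of Zscan4d was 21.5% (95% Wilson interval 18.5 to 24.8) in Ground_R9wt_D1 and 24.2% (20.6 to 28.3) in Space_R9wt_D1, but 8.92% (7.06 to 11.2) in Ground_R9wt_D5 and 10.98% (8.82 to 13.6) in Space_R9wt_D5. The share of Zscan4d was therefore smaller in the wild-type libraries of D5 than in those of D1, beyond counting error in both locations, although the sum was no lower.

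**Figure D4:**
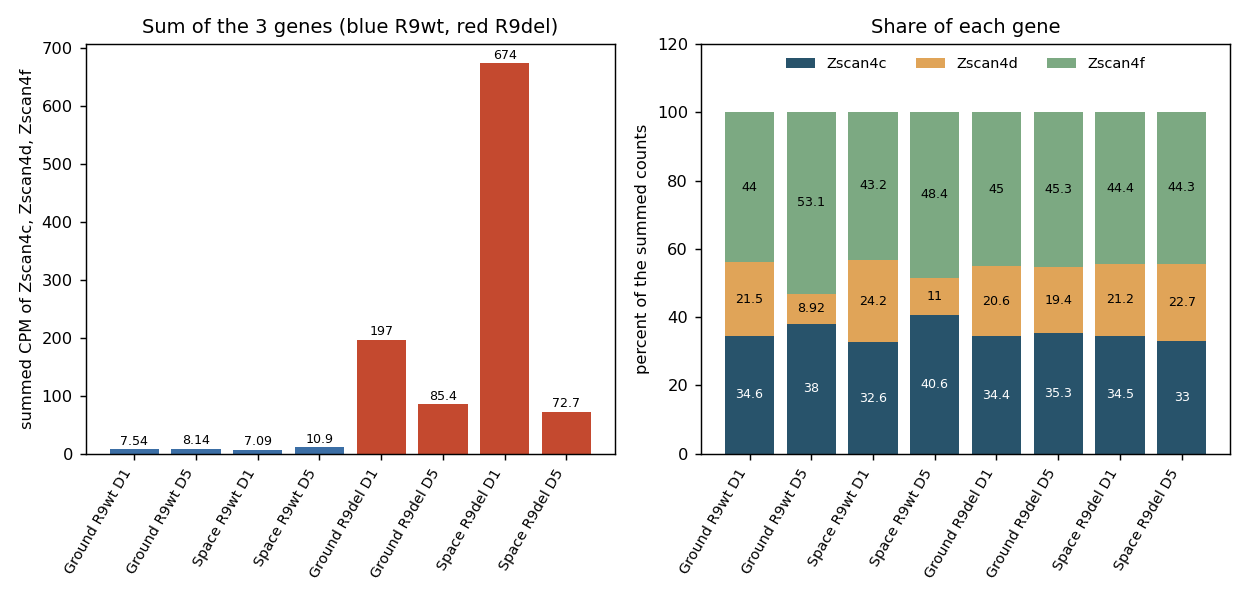
Left, summed CPM of Zscan4c, Zscan4d and Zscan4f in each library, from 7.09 in Space_R9wt_D1 to 674 in Space_R9del_D1. Right, share of each gene in the summed counts of the 3 (percent), in which Zscan4d takes 8.92% and 10.98% in the R9wt libraries of D5 and 19.4% to 24.2% in the other 6.

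The comparison of Space with Ground asks for an effect of spaceflight that is shared by both genotypes and durations, and none of the 6 genes was called in it. Under the unadjusted rule 10.9% of all genes were called (2.91% higher and 7.97% lower), and under the adjusted rule 5.41% (0.581% higher and 4.83% lower). The log2 fold change was 1.35 for Zscan4c (standard error 1.41, adjusted p = 0.686), 1.45 for Zscan4d (1.52, 0.685), 1.34 for Zscan4f (1.41, 0.690) and 1.10 for Zfp352 (1.81, 0.816). Those of Dppa2 (-0.04, standard error 0.78) and Dppa4 (-0.07, standard error 0.31) were near 0. Without Space_R9del_D1 the values were -1.33 for Zscan4c, -1.19 for Zscan4d, -1.32 for Zscan4f and -2.00 for Zfp352, and without its ground partner Ground_R9del_D1 they were 2.45, 2.68, 2.45 and 3.42, so the direction and size depended on these libraries. With the matched pairs as a block they were 0.48, 0.69, 0.44 and 1.34 (adjusted p of 0.253 to 0.490 in edgeR's test). Zfp352 was higher in space in 4 of 4 matched pairs, Zscan4d in 3, Zscan4c and Zscan4f in 2, and Dppa2 and Dppa4 in 1. The groups overlapped for all 6 genes, and the exact permutation p lay between 0.571 and 0.971.

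Single pairs of Space and Ground libraries gave the ratio in each setting, with counting error only. In R9del at D1 Zscan4c was 3.43-fold higher in space (95% counting interval 3.32 to 3.55), Zscan4d 3.51-fold (3.37 to 3.67), Zscan4f 3.37-fold (3.28 to 3.47) and Zfp352 2.30-fold (2.07 to 2.56), so that 4 of 6 genes were past a fold of 2 (9.41% of genes). In R9del at D5 none was past a fold of 2 in either direction (8.18% of genes higher and 15.4% lower), and the ratios lay between 0.796 for Zscan4c and 1.05 for Zfp352. In R9wt at D1 the ratios of the Zscan4 genes were 0.888 to 1.06, and 2 genes were past a fold of 2, with Zfp352 higher on 10 counts against 4 (3.21-fold, interval 0.926 to 14.0) and Dppa2 3.10-fold lower (14.5% of genes higher and 20.2% lower). In R9wt at D5 the Zscan4 genes were 1.22- to 1.65-fold higher, while Dppa2 was 4.33-fold and Zfp352 at least 4.40-fold higher (17.2% of genes). Dppa2 thus moved in opposite directions in the wild-type pairs and hardly at all in the R9del pairs. Whether the difference between locations depended on genotype was tested as an interaction with duration as covariate, which called none of the 6 genes and none of 22561 genes (edgeR's quasi-likelihood test, adjusted p = 1.00 for each member). The value was 0.84 for Zscan4c, 0.62 for Zscan4d, 0.99 for Zscan4f and -2.57 for Zfp352 (log2), and without Space_R9del_D1 it was -1.28, -0.59, -1.12 and -3.49. Over all fits that left out 1 library, that of Zfp352 ranged from -4.51 (without Ground_R9wt_D1) to -1.17 (without Space_R9wt_D5). Of all genes 704 (3.12%) had an unadjusted p under 0.05, and DESeq2's Wald test called 31 genes and no member.

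Culture for 5 days against 1 day gave negative values for all 6 genes, none of them called. The log2 fold change was -2.32 for Zscan4c (standard error 1.34), -2.43 for Zscan4d (1.46), -2.31 for Zscan4f (1.34), -3.19 for Zfp352 (1.73), -0.33 for Dppa2 (0.78) and -0.32 for Dppa4 (0.31). Under the unadjusted rule 704 of all genes (3.44%) were called (2.35% higher and 1.08% lower), and under the adjusted rule none was with edgeR's quasi-likelihood test, against 35 with its exact test and 92 with DESeq2's Wald test. Zscan4d, Zfp352 and Dppa4 were lower at D5 in 4 of 4 matched pairs, Zscan4c and Zscan4f in 2 of 4 and Dppa2 in 3 of 4. For Zfp352 the wild-type pairs lay within counting error. They held 0 counts at D5 against 4 at D1 on the ground, and 9 against 10 in space. With the matched pairs as a block, Zscan4d (-1.54, adjusted p = 0.404) and Zfp352 (-2.47, adjusted p = 0.411) passed the unadjusted rule in edgeR's test. Without Space_R9del_D1 the values were -0.66 for Zscan4c, -0.75 for Zscan4d, -0.66 for Zscan4f and -1.90 for Zfp352.

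In single pairs of libraries, the 3 Zscan4 genes were lower at D5 in both R9del pairs, whereas their directions were mixed in the wild-type pairs. In R9del on the ground Zscan4c was 2.24-fold lower at D5 (2.13 to 2.36), Zscan4d 2.46-fold, Zscan4f 2.29-fold and Zfp352 5.90-fold (4.70 to 7.47). In R9del in space they were 9.67-fold (9.17 to 10.2), 8.63-fold, 9.28-fold and 12.9-fold (10.3 to 16.5) lower, which made 4 of 6 genes past a fold of 2 in both pairs (5.96% and 8.5% of genes lower). In R9wt, Zscan4c was 1.19-fold higher at D5 on the ground (0.992 to 1.42) and 1.91-fold higher in space (1.56 to 2.34), and Zscan4f 1.30- and 1.72-fold higher, while Zscan4d was 2.23-fold lower on the ground and 1.44-fold lower in space. Dppa2 went 6.31-fold lower on the ground and 2.13-fold higher in space in R9wt. Past a fold of 2 in R9wt were 2 genes lower on the ground (14.5% of genes) and 1 higher in space (15.1%).

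The test of this difference, the interaction of genotype and culture duration with location as covariate, gave -2.87 for Zscan4c (log2, standard error 0.71, unadjusted p = 0.00386) and -2.87 for Zscan4f (standard error 0.68, unadjusted p = 0.00293). Over 22561 genes the adjusted p was 0.720 and 0.649 in edgeR's test, which called 0 genes, with 973 (4.31%) at an unadjusted p under 0.05. DESeq2's Wald test, with adjusted p of 0.0169 for Zscan4c and 0.0116 for Zscan4f, called these 2 members and 154 genes in all. For Zscan4d the interaction was -1.41 (standard error 0.66) and for Zfp352 -2.35 (1.35). Without Space_R9del_D1 it was -1.94 for Zscan4c, -1.90 for Zscan4f, -0.60 for Zscan4d and -2.40 for Zfp352 (adjusted p = 1.00 for each in edgeR's test). For Zfp352 it became 2.20 without Space_R9wt_D5. The interaction of location and duration called 1 gene (0.00443%, with 6.59% at an unadjusted p under 0.05), which was no member, with Dppa2 at 1.83 (standard error 0.81, adjusted p = 0.733 in edgeR's test), from 0.87 without Ground_R9wt_D5 to 2.75 without Ground_R9del_D5. In it Zscan4c was at -0.95, Zscan4d at -0.72, Zscan4f at -1.08 and Zfp352 at 0.69, and without Space_R9del_D1 they were at 1.08, 0.44, 0.93 and 1.28.

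Other genes of the two-cell stage were also higher in R9del. A list of 52 symbols of such genes was written from general knowledge, with earlier results of these data known. Its counts are thus no independent evidence. The list matched 34 rows by symbol, of which 29 were tested. Some of them, such as Olfr376, Tdpoz3, Gm7682 and Ubtfl1 (named after their values were seen), were near 0 in R9wt and passed the filter on low counts through the R9del libraries, where they are high, so the counts and the median describe the tested genes and not the whole list. In R9del against R9wt 21 of the 29 were called higher and 1 lower under the unadjusted rule, and 7 higher and none lower under the adjusted rule (6.37% and 1.18% of all genes were called higher). Their median log2 fold change was 3.43, against -0.05 over all genes, and it was the same with Olfr376 at its lower bound. Matching also through the synonyms of RefSeq's gene table, added after the data were seen, showed 2 symbols to be second names of matched genes and added 6 genes, among them Dub3, listed as Usp17le. Of the 35 genes then tested 26 were called higher and 1 lower under the unadjusted rule and 8 higher under the adjusted rule, with a median of 3.46. In 18 of the 29 genes every R9del library lay above every R9wt library (7.1% of all genes). Without Space_R9del_D1 19 were called higher under the unadjusted rule and none under the adjusted rule, with a median of 2.55. Over the 8 fits that each left out 1 library, a check added after the data were seen, 19 to 22 were called under the unadjusted rule and 0 to 3 under the adjusted rule.

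Among the 7 genes called under the adjusted rule were Gm4340 (log2 fold change 4.16, adjusted p = 0.0370), Gm5662 (4.09, 0.0403), Gm2016 (4.02, 0.0423), Cml2 (2.79, 0.0497), Tdpoz3 (adjusted p = 0.0415) and Olfr376. Tdpoz3 encodes a protein with a TRAF-like and a BTB domain, and Olfr376 belongs to the olfactory receptor genes. Tdpoz3 had 0, 0, 0 and 3 counts in the R9wt libraries and 83, 24, 217 and 20 in the R9del libraries, so its fold has no firm size. Olfr376 had 0 counts in all R9wt libraries and a mean of 0.583 CPM in R9del, at least 14.4-fold higher than the level of 3 counts per library. The predicted genes share sequence, since 74.0% of the 50-base words of Gm2016 transcripts were also in Gm5662 and 95.1% of those of Gm4340 in Gm6763, so these are fewer separate measurements than names. Gm4340 was at 1.24, 4.21, 1.13 and 2.29 CPM in the R9wt libraries (Ground_R9wt_D1, Ground_R9wt_D5, Space_R9wt_D1, Space_R9wt_D5) and at 45.7, 17.5, 81.4 and 11.5 CPM in the R9del libraries in the same order. These groups did not overlap, and the highest library was again Space_R9del_D1.

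Dux, which is not among the 7 and was picked for its role after its values were seen, was at 0.17, 0.36, 0.13 and 0.28 CPM in the R9wt libraries and 0.94, 0.53, 5.09 and 0.47 CPM in the R9del libraries, in the order just given. It passed the unadjusted rule (log2 fold change 2.91, standard error 0.84, adjusted p = 0.102), its groups did not overlap, and Space_R9del_D1 was the highest library. Of the 30 genes of the list that reached 1 CPM in a library, 22 were highest in Space_R9del_D1, as were 12.2% of the 17597 genes that reached 1 CPM. Of these 22, Dux, Spz1 and Olfr376 reached 1 CPM in that library alone, which fixed where they were highest. The tested genes of the list that were not called higher in R9del, named after their values were seen, were Patl2, called lower under the unadjusted rule (-1.37, standard error 0.48), and Slc34a2, Tmem132c, Obox6, Gsta4, Cd79b, Ddit4l and Cwc22, with values between -1.77 and 0.72 that were not called. Ddit4l and Cwc22 were nevertheless highest in Space_R9del_D1, and for Ddit4l every R9del library lay above every R9wt library.

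**Figure D5:**
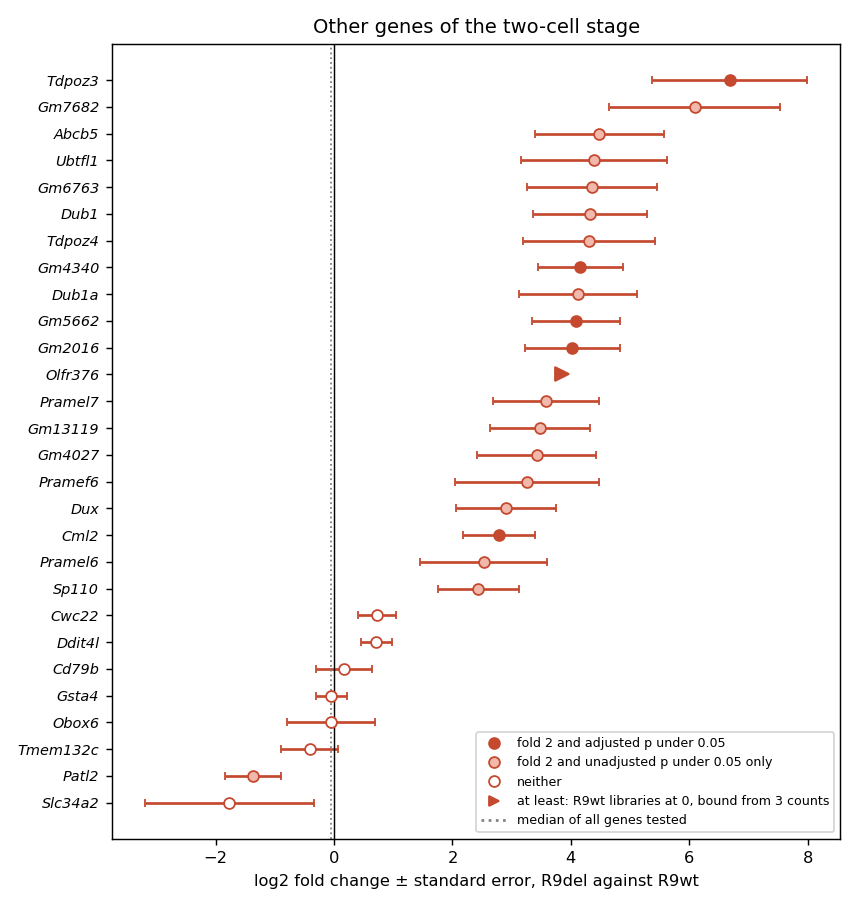
Log2 fold change of R9del against R9wt with its standard error for tested genes of the two-cell list (edgeR quasi-likelihood test). Filled points pass a fold of 2 with an adjusted p under 0.05, light points with an unadjusted p only, and the triangle is the lower bound of Olfr376, whose R9wt libraries had 0 counts. Most of the genes shown lie at 2.44 or above, against a median of all genes at -0.05, and the highest point, Tdpoz3, rests on 3 counts in the R9wt libraries.

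In the other comparisons few genes of the list were called in edgeR's test on all 8 libraries. Space against Ground had 1 gene called higher under the unadjusted rule, Slc34a2, which encodes a phosphate transporter (log2 fold change 3.91, standard error 1.13, adjusted p = 0.0765), and none lower (2.91% and 7.97% of all genes), with a median of 0.76 over the list that ranged from -0.71 without Space_R9del_D1 to 1.49 without Ground_R9del_D1 and was 0.36 in the blocked fit. At D5 against D1 the median was -1.84 (-0.61 without Space_R9del_D1 and -0.39 in the blocked fit), and 3 genes were called under the unadjusted rule, with Obox6 (1.70) and Slc34a2 (3.35) higher and Abcb5 (-3.17) lower (2.35% of all genes were higher and 1.08% lower). Slc34a2 was at 24.0 CPM in Space_R9wt_D5 and at 0.16 to 4.06 CPM in the other 7 libraries, so both of its calls involve 1 library that stands apart. The number called lower was 6 with DESeq2's Wald test, 8 without Ground_R9wt_D1, 4 without Space_R9wt_D1, 1 without Space_R9del_D5 and 0 without any of the other 5 libraries.

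Repressors of the two-cell-like state were examined as 30 genes, all tested. In R9del against R9wt 1 of them was called (1.18% of all genes were called higher under the adjusted rule and 6.37% under the unadjusted rule), Myc, which rose by 2.99 (log2, standard error 0.57, adjusted p = 0.0415). Myc was at 2.43 to 13.0 CPM in the R9wt libraries and at 29.8 to 79.3 CPM in the R9del libraries. No repressor was called lower (0.85% and 7.39% of all genes), and the median log2 fold change was 0.11. In Space against Ground 4 were called lower under both rules (4.83% of all genes were, under the adjusted rule), namely the histone deacetylase gene Hdac2 (-2.38, standard error 0.24, adjusted p = 3e-04) and 3 genes of non-canonical Polycomb complexes, Pcgf6 (-1.84, 0.21, 5e-04), E2f6 (-1.71, 0.25, 0.0027) and Ring1 (-1.60, 0.37, 0.0298). These 4 genes were lower in space in both genotypes, for instance Pcgf6 with 93.99 and 65.7 CPM in Ground_R9wt_D1 and Ground_R9wt_D5, 76.8 and 101 CPM in the R9del ground libraries and 20.6 to 25.3 CPM in the 4 space libraries. Over the same 4 space libraries the summed Zscan4 level ranged from 7.09 to 674 CPM. A relation between these repressors and the Zscan4 level was not tested. In Space against Ground other Polycomb-related genes of the list were not called, namely Mga (0.71), L3mbtl2 (0.43), Max (0.32), Rybp (0.06) and Rnf2 (-0.11). At D5 against D1 no repressor was called.

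Genes related by family or function were examined next. Of the other Dppa genes, which share a name as developmental pluripotency-associated genes, Dppa3 and Dppa5a passed the unadjusted rule in R9del against R9wt in the opposite direction to Dppa2, at -1.92 (standard error 0.74) and -1.03 (0.33), as did 7.39% of all genes in that direction, while Dppa1 and Dppa5b were too low to be tested. A list of telomere genes that also held recombination genes had 13 tested, of which 1 was called in R9del against R9wt. This was the meiotic recombinase gene Dmc1, which fell by 1.80 (log2, standard error 0.32, adjusted p = 0.0370), where 0.85% of all genes were called lower. No other gene of the list was called in that comparison. In Space against Ground 1 was called, Tert, the catalytic subunit of telomerase, which rose by 1.33 (standard error 0.25, adjusted p = 0.0101), where 0.581% of all genes were called higher. Gm8300, listed beside the Zscan4 copies, shared none of its 1811 words of 50 bases with the Zscan4 genes and was not counted as one. It shared 12.6% of them with Gm2016 and 13.4% with Gm5662 of the two-cell list, so it may not be fully separate from these. Gm8300 rose by 3.998 in R9del (standard error 0.79, adjusted p = 0.0418). BC061212, listed as a possible copy of the Tcstv genes, could not be checked for its relation to them. In R9del it was higher by 4.69 (log2, standard error 1.41, adjusted p = 0.110 in edgeR's test). It passed the unadjusted rule, as did 6.37% of all genes in that direction.

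Markers of other cell types were examined beside the difference between genotypes, in which 6.37% of all genes were called higher and 7.39% lower under the unadjusted rule, and 1.18% and 0.85% under the adjusted rule. Of the neural markers 1 of 3 tested was called, Tubb3, a neuronal tubulin gene, at 2.68 (log2, standard error 0.43, adjusted p = 0.0328), and the summed level of the 4 matched markers was 26.5 to 46.7 CPM in R9wt and 102 to 132 CPM in R9del. The difference in this sum was that of Tubb3 (6.24 to 26.8 CPM in R9wt and 72.1 to 115 in R9del), since Nes (14.8 to 26.4 and 16.9 to 35.6 CPM) and Pax6 overlapped between genotypes. Neurog2 stayed at or below 0.18 CPM. Primitive endoderm markers had 1 of 7 called under the unadjusted rule and none under the adjusted rule (Sox7, 2.41), and their sums overlapped (17.0 to 149 CPM in R9wt and 44.7 to 222 in R9del). For trophoblast the sums were 53.8 to 823.5 and 97.9 to 277 CPM, with 1 of 5 called lower under the unadjusted rule (Eomes, -1.17), and for fibroblast markers, as of feeder cells, 40.0 to 61.2 and 26.4 to 51.9 CPM, with 1 of 5 called lower (Pdgfrb, -1.30). The fibroblast markers Postn, Lum, Dcn and Col3a1 stayed at or near 0 in all libraries. The part of Tubb3 or of any such marker in the difference of the two-cell genes was not tested. Within Space against Ground the marker lists gave Sox17 (-3.88) and Cdx2 (-2.99) lower and Esrrb (1.20) higher under the adjusted rule (4.83% of all genes were lower and 0.581% higher). The lists of these genes mostly went the other way. Primitive endoderm had 5 of 7 values positive (median 1.02), with Pdgfra (1.81) and Dab2 (1.66) called higher under the unadjusted rule (2.91% of all genes). Trophoblast had 4 of 5 positive (median 0.67), and the mESC markers had 3 of 8 positive (median -0.30). At D5 against D1 the primitive endoderm markers had 4 of 7 called higher under the unadjusted rule (Gata4, Dab2, Foxa2 and Gata6, median of the list 1.34) and the trophoblast markers 2 of 5 (Krt8 and Hand1, median 1.79), as were 2.35% of all genes, and none under the adjusted rule. The part of these markers in the values of the two-cell genes at D5 was not tested.

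The genes whose pattern over the 8 libraries was most like that of the members were found by the root mean square difference of log2 CPM, each gene centred on its own mean, among 12394 other genes with a symbol and a mean log2 CPM of at least 1. For the summed Zscan4 genes these were Gm4340 (0.585), Gm5662 (0.676) and Dub3 (0.699), where the Zscan4 sum itself had an SD of 2.36. For Zfp352 they were Dub3 (1.39), Tmprss11d (1.45) and Gm4340 (1.46) at an SD of 3.03. Dppa2 was most like Gm14820 (0.340), Gpatch4 (0.360) and Gm9788 (0.368) at an SD of 1.38, and Dppa4 most like Gm14058 (0.0847), the acetyltransferase gene Kat2b (0.122) and Polr3f (0.146), which encodes a subunit of RNA polymerase III, at an SD of 0.441. Dub3, a deubiquitinating enzyme gene that the two-cell list holds under its later symbol Usp17le, was at 0.582 to 2.78 CPM in R9wt, at 4.96 to 10.03 CPM in 3 of the R9del libraries and at 55.6 CPM in Space_R9del_D1. None of the nearest genes of Dppa2 and Dppa4 was among those of the Zscan4 sum and Zfp352.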

How the data were processed

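RNA of 8 mESC libraries was sequenced on an Illumina HiSeq instrument with paired ends. Per the labels, the submitters' processing notes name FastQC, TopHat2 (version 2.0.9), the mm9 genome and edgeR, and the deposited values are raw read counts per Ensembl gene. The counting program, its annotation and its handling of strand and of reads that fit several places are not given in the sources used here, so reads of near-identical copies may have been dropped or divided, and levels of the Zscan4 copies are uncertain.

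Genes were matched by Ensembl identifier, with positions and exon lengths from the mm9 annotation, which held 32722 of the 50686 identifiers (97.08% of counts). The members and lists were chosen with earlier results of these data known. Groups were taken from the sample labels. From the counts, edgeR (version 4.0.16, R 4.3.3) was run with TMM scaling, filterByExpr at a minimum count of 10 and the quasi-likelihood test, 4 libraries against 4 without covariates, since each condition had 1 library. The p-values therefore measure the spread among these libraries, other conditions included. Calls used a fold of at least 2 with an unadjusted p under 0.05, the threshold the study used, or with a Benjamini-Hochberg adjusted p under 0.05. Interactions used the third condition as covariate, without a fold threshold. Ratios of single libraries have 95% exact binomial counting intervals, shares have Wilson intervals, and a count of 0 was set at 3 counts for bounds.

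Named beside the members were genes of each list called under the adjusted rule, up to 5 more with the smallest p among those passing the unadjusted rule, markers of mESCs, the 3 genes most like each member, and copies. Other genes are said to be chosen after their values were seen. A gene of the two-cell list that entered its counts is not reported here by name. Alternatives were other scalings, no filter, edgeR's exact test, DESeq2 (version 1.42.0), covariates, a block for libraries that share the other conditions, and leaving out each library. The deviations of libraries that share the other conditions correlated at 0.35 to 0.49 for genotype, 0.28 to 0.61 for location and 0.38 to 0.58 for duration. All 8 columns of the matrix were used.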

Additional observations from a re-analysis of the deposited data

Results flagged for a closer look

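Within the 4 Space libraries, Space_R9del_D1 stood far above the other 3 for Zscan4c (232 CPM), Zscan4d (143 CPM), Zscan4f (299 CPM) and Zfp352 (16.7 CPM), by a gap of at least 0.892 of the group's range. Within the 4 Ground libraries, Ground_R9del_D1 stood apart in the same way for Zfp352 (7.25 CPM). Such a library was found in 5 of the 36 groups examined, and chance gives about 1 in 20 groups of replicates. These groups hold different genotypes and durations, so that rate does not apply to them, and the Zscan4 genes share sequence, so these are not 5 separate observations. The part of genotype, duration and the culture itself in these values was not tested, since the condition had 1 library.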

How the results depend on the processing

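For R9del against R9wt, all alternative log2 fold changes of the members kept their direction and their call under the unadjusted rule. Counts under the adjusted rule moved. The genes called under the adjusted rule numbered 416, and 157 without the filter on low counts, 1416 with edgeR's exact test, 1785 with DESeq2's Wald test, 1402 with the matched pairs as a replicate block, 1233 with the other conditions as covariates and 0 to 535 with a library left out. The members called were 4, and 0 to 4 with a library left out. For the two-cell list, in checks added after the data were seen, 7 became 12 with the block, 20 with DESeq2 and 0 to 3 with a library left out.

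For Space against Ground, 1108 genes under the adjusted rule became 1706 with DESeq2. The two-cell list had 1 gene called higher under the unadjusted rule and 3 with the block (1 to 2 with a library left out), and none under the adjusted rule but 1 with the block and 1 with DESeq2 (0 to 1). None of its genes was called lower under the unadjusted rule, but 1 was with the block and 1 without Space_R9del_D1. The value of Dppa2 turned to 0.11 with the block and 0.040 with covariates. With a library left out the log2 fold changes ranged from -1.33 to 2.45 for Zscan4c, -1.19 to 2.68 for Zscan4d, -1.32 to 2.45 for Zscan4f, -2.00 to 3.42 for Zfp352, -0.49 to 0.33 for Dppa2 and -0.31 to 0.070 for Dppa4, with the negative values of the first 4 found without Space_R9del_D1.

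For D5 against D1, 704 genes under the unadjusted rule became 1284 without the filter and 1104 with covariates, and 0 under the adjusted rule became 35 with edgeR's exact test and 92 with DESeq2. Both the block and the covariates called 2 members, Zscan4d and Zfp352, under the unadjusted rule. Dppa2 ranged from -0.70 to 0.041 with a library left out, and the two-cell list had 1 to 2 genes called higher and 0 to 8 lower, against 2 and 1 with all libraries (6 lower with DESeq2).

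For location and genotype, DESeq2 called 31 genes in place of 0 (0 to 2 with a library left out). The values ranged from -1.28 to 2.18 for Zscan4c, -0.59 to 1.501 for Zscan4d, -1.12 to 2.22 for Zscan4f, -1.77 to 1.06 for Dppa2 and -0.63 to 0.046 for Dppa4, and Dppa2 was 0.15 without the covariate. For location and duration, 1 gene became 0 without the covariate and 73 with DESeq2 (0 to 5), and the ranges were -2.32 to 1.08 for Zscan4c, -1.61 to 0.44 for Zscan4d, -2.34 to 0.93 for Zscan4f, -1.13 to 3.85 for Zfp352 (-0.91 without the covariate) and -0.21 to 0.59 for Dppa4. For genotype and duration, DESeq2 called 154 genes, 2 of them members, in place of 0 (0 to 2), and the ranges were -3.68 to -1.94 for Zscan4c, -2.12 to -0.60 for Zscan4d, -3.66 to -1.90 for Zscan4f, -3.38 to 2.20 for Zfp352 and -0.76 to 1.99 for Dppa2. The causes of these shifts were not tested. With 1 library per condition, the spread between cultures of the same condition is unknown, and in the wild-type libraries Zfp352 lay near the level of 3 counts.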
